A study of Homo sapiens with 7 samples.

Results

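Among 2956 downstream antisense transcription start sites (daTSSs) called in human T47D/A1-2 cells, 317 lay 1 to 200 nt downstream of the start site of their gene. Members were chosen by this distance alone, measured along the gene strand from the gene TSS that carried the same identifier, and they made up 10.7% of all daTSSs (95% interval 9.63% to 11.9%). The other 2639 daTSSs lay farther downstream, up to 2000 nt. Of all 10391 called gene TSSs, a daTSS within 200 nt was called at 3.05%, a daTSS at any distance at 28.4% and an upstream antisense TSS (uaTSS) at 53.1%. The 317 members belonged to 316 different annotated genes and 1 gene TSS without an annotated gene, and 314 of the genes were protein coding.

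Start-seq sequences short capped nuclear RNA, so that the 5’ end of a read marks the nucleotide at which RNA polymerase II began. At many mammalian promoters polymerase also starts on the opposite strand, upstream of the gene (divergent transcription) or inside it, heading back toward the promoter (convergent transcription). A daTSS is a start on the opposite strand downstream of the called gene TSS. Since that gene TSS need not lie at the annotated start, a daTSS can also lie upstream of the annotated gene. A start site often sits on a pyrimidine followed by a purine, the core of the initiator element, and CpG-rich promoters commonly lack a TATA box.

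The cells, labelled T-47D and called T47D/A1-2 in the study, are a luminal breast cancer line, and the variant used makes extra glucocorticoid receptor (the rat protein) and holds in its genome a luciferase reporter under the MMTV promoter. Growth medium with 10% serum was replaced, 24 hours or more before harvest, by medium with 5% serum that had been treated with charcoal and dextran, and this was the only condition. All start sites came from Start-seq replicate 1, and mRNA levels are FPKM (fragments scaled to transcript length and library size) from 3 poly-A enriched RNA-seq libraries that the authors merged into 1 value per gene. The second Start-seq library and the nucleosome and open-chromatin data (MNase-seq, FAIRE-seq) did not enter the analysis. In the merged RNA-seq, 9 of 9 luminal markers had at least 1 FPKM (44.1 to 1142), against 0 of 6 basal and mesenchymal markers. No comparison below has an error between replicates, so none was tested. The intervals are at 95% (exact Clopper-Pearson for shares, order statistics for medians) and cover the counting of sites in 1 library only. The deposited calls hold no read counts, so the depth behind single sites is not known here.

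The sequences centered on the daTSSs of 9 of the 10 most highly expressed member genes, all but GRINA, are shown first, because they give the exact letters on which antisense transcription started. Each run has 30 bases of the antisense strand in hg19, written 5′ to 3′, and the capitals mark positions -1 and +1, the base before the daTSS and the daTSS itself.
RPL27 (chr17:41150651-41150680, minus strand): ttgggccggaacttCAgactgtgttcactg
RPL23 (chr17:37009724-37009753, plus strand): tctcgcggtatccaGActacattcacgtcg
ACTG1 (chr17:79479781-79479810, plus strand): gagcggcggaagaaCAgagtgcgagagctg
MYL12B (chr18:3262354-3262383, minus strand): cgcccccttctcagCCagtctgacaggtcc
BTF3 (chr5:72794128-72794157, minus strand): gtccctattctcctCCtcctgctccagcgg
RPL10A (chr6:35436240-35436269, minus strand): ggggcacctgaaggCGcggatgaacgcgga
RPS9 (chr19:54704864-54704893, minus strand): ccccacaaccgtgcTGcactcccgttcaac
NCL (chr2:232329050-232329079, plus strand): cgcgagcttcaccaTGatggcggcggagtg
MRPL24 (chr1:156710519-156710548, plus strand): ccccgagatccttcCCttctttcccttcac

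At the shortest distances the sense and antisense start sites were 1 to 3 nt apart, so both fit into a single run. These runs give 30 bases of the gene strand from 13 bases before the gene TSS, and the capitals mark the gene TSS and, to its right, the base paired with the daTSS.
GALNT10 (chr5:153570312-153570341, plus strand): gccgcagccgcttCTgctggctgagctgct
TBC1D2 (chr9:101018381-101018410, minus strand): gacagctccggagCCgcgctgcccgggcga
ELF4 (chrX:129244646-129244675, minus strand): cctccaacttgccAtTggcggcgcgaagtg
GABPB2 (chr1:151043409-151043438, plus strand): aggtgaggaggaaAgAagagatgtgtggac
SUPT3H (chr6:45345322-45345351, minus strand): tctacgccggagtGtTgaagggagggcggc
TARBP1 (chr1:234613977-234614006, minus strand): aagcgagcgcgctAccTgctgcagagggcg

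The distances that chose the members had a median of 134 nt and quartiles of 70 nt and 171 nt. Counted in 20-nt steps, 29 daTSSs lay in the nearest step, 16 in the step from 41 to 60 nt, and 56 in the last step up to 200 nt. The next 20 nt, outside the threshold, held 98. Just inside the threshold were ICAM1 (200 nt, 0.598 FPKM), EIF2B3 (199 nt, 17.1 FPKM) and RIOK2 (199 nt, 12.3 FPKM), and just outside were CLN6 (201 nt, 25.6 FPKM), DFFA (201 nt, 13.9 FPKM) and GGT6 (202 nt, 56.9 FPKM). Counts per 10 nt stepped up at the threshold itself, from 29 daTSSs over 191 to 200 nt to 53 over 201 to 210 nt, and the source of this step was not tested. No member shared its position and strand with any other called start site.

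In the group with the shortest distances, 15 daTSSs lay within 10 nt of the gene TSS. In GALNT10, which encodes an enzyme that starts mucin-type O-glycosylation, the gene TSS was called at position 153570325 of chromosome 5 and the daTSS on the adjacent base. TBC1D2, a GTPase-activating protein for RAB7, also had its daTSS 1 nt away. ELF4, an ETS-family transcription factor, GABPB2, a GABP subunit, and SUPT3H, a subunit of the SAGA coactivator, had theirs 2 nt away, and TARBP1, an RNA methyltransferase, 3 nt away. All 6 also had a uaTSS, at 352, 122, 226, 446, 1 and 61 nt upstream, respectively. Their mRNA levels ran from 0.903 FPKM in SUPT3H to 26.5 FPKM in GALNT10. In 3 of the 6 (GALNT10, TBC1D2 and SUPT3H) the daTSS was upstream of the nearest annotated transcript start.

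The 10 highest mRNA levels among members ran from 169 to 745 FPKM. RPL27, a protein of the large ribosomal subunit, had 745 FPKM, with its daTSS at 199 nt in intron 1 and no uaTSS. RPL23 had 694 FPKM, with a daTSS at 171 nt in intron 1 and a uaTSS 233 nt upstream. ACTG1, cytoplasmic gamma-actin, had 509 FPKM, with a daTSS only 29 nt downstream in exon 1 and a uaTSS 817 nt upstream. MYL12B, a myosin regulatory light chain, followed with 446 FPKM and a daTSS at 196 nt. BTF3, part of the nascent polypeptide-associated complex, had 426 FPKM and a daTSS at 160 nt. RPL10A (368 FPKM, 73 nt) and RPS9 (350 FPKM, 152 nt) had their daTSSs in intron 1. GRINA, an NMDA receptor-associated membrane protein, had 344 FPKM with a daTSS 12 nt away. Its gene TSS was 235 nt downstream of the annotated start, and an annotated start of the protein-coding gene PARP10 lay 61 nt from the daTSS, on the daTSS strand. NCL, the nucleolar protein nucleolin, had 213 FPKM with a daTSS at 140 nt in exon 1, and MRPL24, a mitochondrial ribosomal protein, 169 FPKM with a daTSS at 149 nt. Of these 10 genes, 7 had a uaTSS and the 3 without one were RPL27, BTF3 and MRPL24. Reads of ribosomal protein genes can be shared with their many pseudogene copies, so their FPKM are uncertain.

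At the other end, the 5 lowest values were 0.0269 FPKM for F2 (prothrombin), 0.0668 for STPG2, 0.117 for CYP7B1 (an oxysterol hydroxylase), 0.126 for H3C12 (a replication-dependent histone H3 gene) and 0.134 for DNAJC5B (a J-domain protein). Histone mRNAs mostly end in a stem-loop without a poly-A tail, and the RNA-seq libraries were enriched for poly-A. F2 and DNAJC5B had gene TSSs 801 nt upstream and 821 nt downstream of the nearest annotated start, and STPG2 423 nt downstream. The daTSSs of the 5 genes lay 59 to 172 nt from the gene TSS.

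FPKM was available for 313 members. Their median was 13.5 FPKM (interval 10.3 to 15.7) with quartiles of 5.50 and 30.05, and the whole range ran from 0.0269 to 745. The 2585 other daTSSs with a value had a median of 18.8 (17.7 to 20.0), gene TSSs without a daTSS 16.3 (15.6 to 16.9), and all gene TSSs 16.8. On the scale of log2(FPKM + 0.1), the median was 3.76 in members and 4.24 in other daTSSs, a difference of -0.48. The quartile ranges of the groups overlapped widely. In bulk RNA, fewer cells expressing a gene and less RNA per cell cannot be told apart.

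The lower median was not a step at 200 nt. Within the members, the median was 8.87 FPKM (5.96 to 14.01) for 60 daTSSs up to 50 nt away, 12.7 (8.43 to 23.8) for 60 over 50 to 100 nt, 10.2 (7.77 to 19.5) for 70 over 100 to 150 nt, and 15.6 (12.3 to 20.9) for 123 over 150 to 200 nt. The intervals of these 4 steps overlapped. Beyond the threshold it was 15.7 (13.2 to 17.5) over 200 to 300 nt, 20.1 over 300 to 500 nt, 18.4 over 500 to 1000 nt and 23.1 over 1000 to 2000 nt. Genes under 1 FPKM were 7.67% of members (24 of 313, interval 4.97% to 11.2%) and 3.02% of other daTSSs (2.39% to 3.75%), beside 6.08% of all gene TSSs. Genes of at least 100 FPKM were 7.03% of members and 9.44% of other daTSSs, and here the member interval of 4.46% to 10.4% contained the other value.

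The presence of a uaTSS moved with these levels. With a uaTSS, member genes had a median of 17.1 FPKM (14.4 to 22.2, n = 207), beside 21.6 for other daTSSs and 18.6 for gene TSSs without a daTSS. Without a uaTSS, the member median was 7.63 FPKM (5.96 to 9.77, n = 106), beside 14.03 (12.5 to 15.8) for other daTSSs and 13.9 for gene TSSs without a daTSS. The difference in median log2(FPKM + 0.1), members minus other daTSSs, was -0.33 with a uaTSS and -0.87 without.

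A uaTSS was called at 208 members, or 65.6% (60.1% to 70.8%). All daTSSs together had one in 61.4% of cases, the other daTSSs in 60.9% and the gene TSSs of the whole set in 53.1%. The member interval contained the share of the other daTSSs, and the bin over 300 to 500 nt had 65.3%. Among members the share was 56.7% up to 50 nt, 60.0% over 50 to 100 nt, 71.4% over 100 to 150 nt and 69.3% over 150 to 200 nt, with intervals that overlapped.

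The uaTSSs of members lay a median of 219 nt upstream of the gene TSS (179 to 250), beside 202 nt (193 to 210) for other daTSSs, but they were more spread out. At 14 of 208 members (6.73%, interval 3.73% to 11.0%) the uaTSS was within 50 nt, beside 5.15% over 200 to 300 nt, 2.92% for all other daTSSs and 4.204% for all uaTSSs. It was more than 500 nt away at 37 members (17.8%, 12.8% to 23.7%), beside 8.15%, 9.09% and 10.6%. Among members with a gene TSS within 50 nt of an annotated start, it was more than 500 nt away at 13 of 128 (10.2%, 5.52% to 16.7%), an interval that contained the 7.38% of other daTSSs with that property. Between uaTSS and daTSS, both on the antisense strand, the median gap was 355 nt. The uaTSS was the nearer of the pair to the gene TSS at 29.3% of members, a share that the short daTSS distances set in part.

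In 6 members both antisense sites were within 50 nt of each other, on either side of the gene TSS. SUPT3H had its uaTSS 1 nt and its daTSS 2 nt from the gene TSS, a gap of 3 nt. SCP2, a sterol carrier protein, had 19 and 9 nt, and TCEA1, the elongation factor TFIIS, 21 and 7 nt. TM9SF1, a transmembrane protein, had 16 nt on both sides, NOL3, an inhibitor of apoptosis, 12 and 22 nt, and GPM6B, a neuronal membrane glycoprotein, 28 and 19 nt. Their mRNA levels ranged from 0.903 FPKM for SUPT3H to 86.9 FPKM for SCP2. These 6 genes were chosen after their values were seen.

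**Figure D1:**
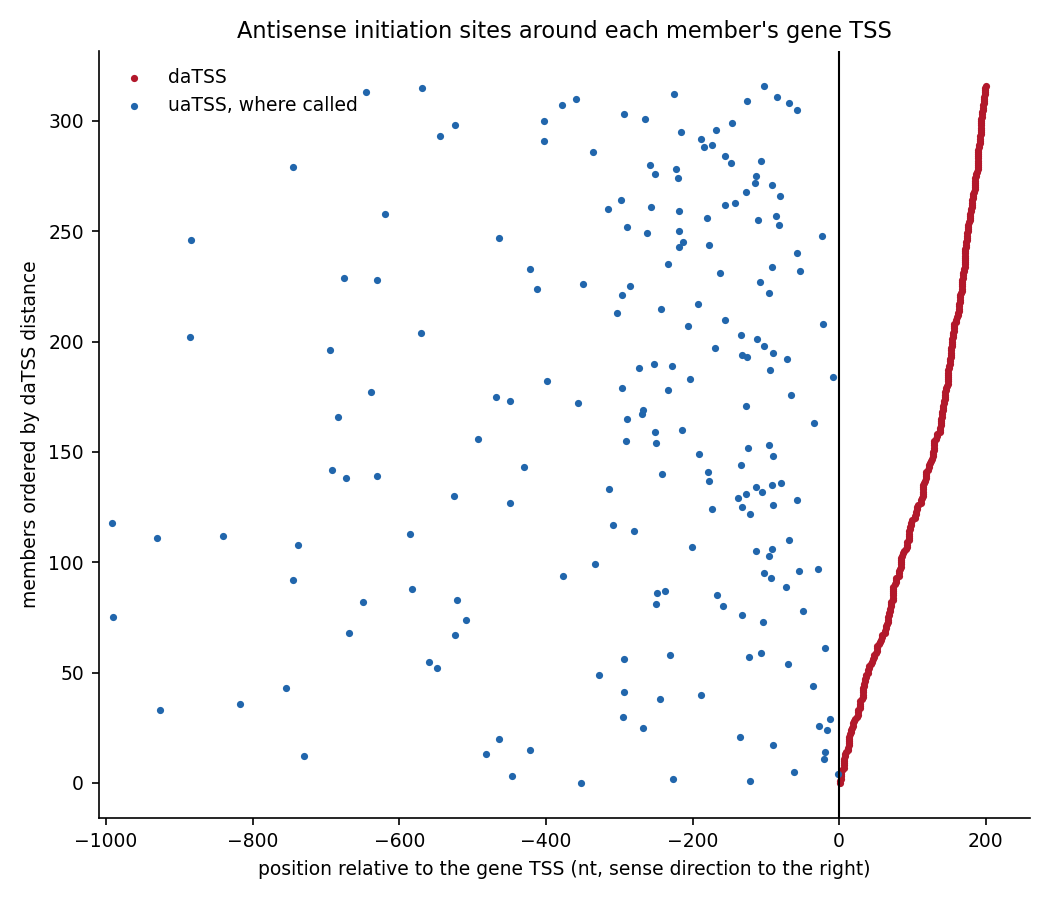
Each row is 1 of the 317 members, ordered by daTSS distance. The black line at 0 is the gene TSS, red points are daTSSs to its right and blue points are the 208 uaTSSs to its left, in nt. The uaTSSs are most crowded within 400 nt and reach 992 nt, and a few blue points sit next to the gene TSS beside short daTSS distances.

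Position within the gene was read from the annotated transcript whose start is nearest to the gene TSS, which existed for 316 members. In 144 (45.6%, interval 40.0% to 51.2%) the daTSS was in an exon, in 112 (35.4%, 30.2% to 41.0%) in an intron, and in 60 (18.99%, 14.8% to 23.8%) it was outside the transcript, upstream of its annotated start. Exon 1 held 143 of the 144, the exception being ASRGL1 with exon 2, and every intronic member was in intron 1. By part, 25.6% of members were in the 5′ untranslated part of an exon and 13.9% in coding sequence, beside 4.67% and 12.6% of other daTSSs. Of other daTSSs, 21.2% were in an exon, 75.1% in an intron and 3.68% outside.

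Distance sets the exon share in part. With all 10366 annotated gene TSSs read at the same distances as the members, 55.5% of positions would be exonic, 34.5% intronic and 10.0% outside. Read by the nearest transcript alone, members thus had an exon share below, and an outside share above, what their distances gave over all gene TSSs. With any transcript of the gene, 53.8% of members were exonic and 13.3% (9.75% to 17.5%) were outside. All gene TSSs were not read in that way, so the comparison holds for the nearest transcript only. For the 173 members whose gene TSS was within 50 nt of an annotated start, 61.3% were exonic (53.6% to 68.6%), and all gene TSSs with that property read at the same distances gave 60.7%.

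The gene TSSs themselves were farther from annotated starts at members. Within 50 nt of an annotated start were 54.7% of member gene TSSs (49.1% to 60.3%), beside 76.9% for other daTSSs (75.3% to 78.5%) and 75.02% for all gene TSSs. The call was over 50 nt upstream at 20.6% of members and at 11.0% of other daTSSs, and over 50 nt downstream at 24.7% and 12.1%. The median distance to the annotated start was 41 nt (34 to 54) in members, 9 nt in other daTSSs and 10 nt over all gene TSSs. By distance of the daTSS, the share within 50 nt was 40.0% for members up to 50 nt, 46.7% over 50 to 100 nt, 54.3% over 100 to 150 nt and 65.9% over 150 to 200 nt. It was 71.8% over 200 to 300 nt. The daTSS was upstream of the annotated start in 40.0% of members up to 50 nt (27.6% to 53.5%) and in 11.9% of those over 150 to 200 nt. At a threshold of 100 nt it was upstream in 29.2% of members, over 1.5 times the 18.99% at 200 nt. The distance that chose the members sets these upstream shares in part, since a shorter distance leaves more daTSSs upstream of the annotated start. The 50-nt limit was set after the data were seen.

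**Figure D2:**
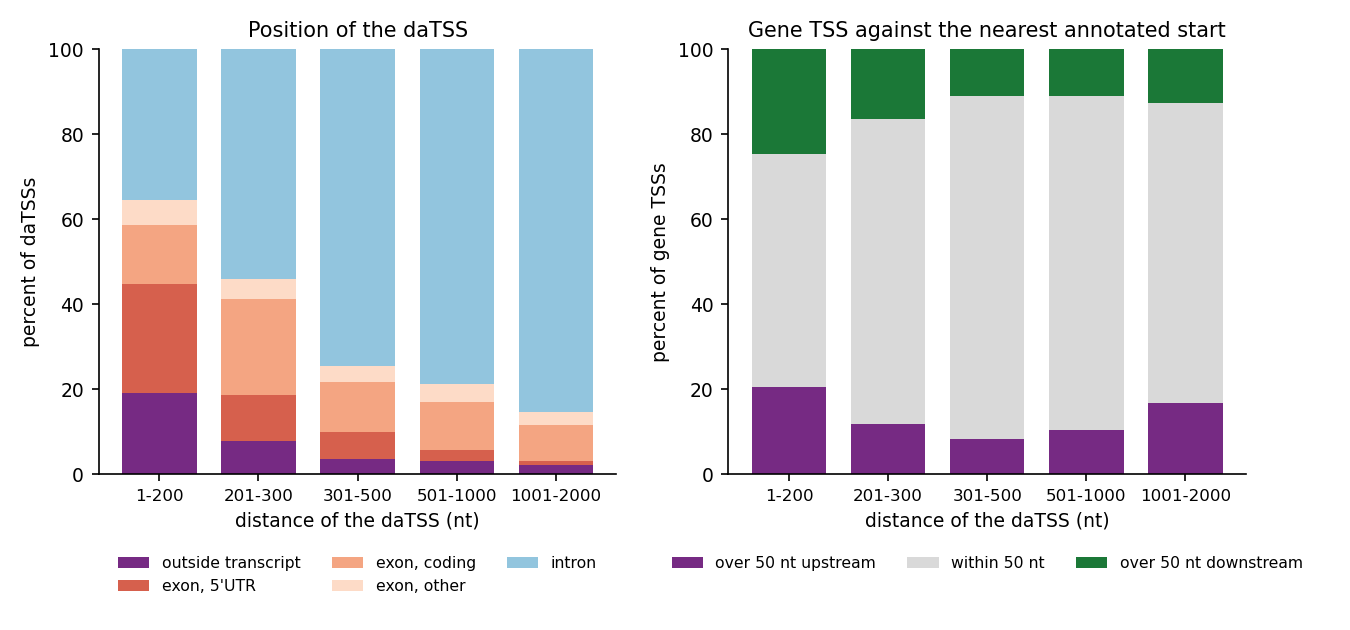
Left, percent of daTSSs outside the transcript, in exons (5′ untranslated, coding, other) and in introns, by distance bin. Right, percent of their gene TSSs over 50 nt upstream of, within 50 nt of, or over 50 nt downstream of the nearest annotated start. Members are the leftmost bar of each panel, with 35.4% in introns and 54.7% of gene TSSs within 50 nt.

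The uaTSS share was lowest where the gene TSS lay upstream of the annotated start. A uaTSS was called at 74.0% of members with a gene TSS within 50 nt of an annotated start (66.8% to 80.4%, n = 173), at 41.5% of those over 50 nt upstream (29.4% to 54.4%, n = 65) and at 67.9% of those over 50 nt downstream (56.4% to 78.1%, n = 78). Other daTSSs had the same order, with 64.9%, 35.3% and 59.9%. Median mRNA levels were 14.9, 8.64 and 13.5 FPKM in these 3 groups of members, and 20.5, 14.3 and 12.9 FPKM in those of other daTSSs. BTF3 is an example of an upstream call. Its gene TSS lay 251 nt and its daTSS 91 nt upstream of the annotated start.

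The share with a neighbouring gene TSS on the opposite strand is set in part by how daTSSs were filtered. The authors removed daTSSs with a known start site on the same strand nearby, up to 1000 nt away, and for a short daTSS distance this takes in most of the 1000 nt upstream of the gene, whereas for a daTSS over 1000 nt away it takes in none. A called gene TSS of another gene on the opposite strand within 1000 nt upstream was present at 1 of 317 members (0.315%, interval 0.00799% to 1.74%), beside 3.18% of other daTSSs and 11.5% of all gene TSSs, to which the filter did not apply. It was present at 0 of 390 daTSSs over 200 to 300 nt, 0.926% over 300 to 500 nt, 3.64% over 500 to 1000 nt and 8.71% over 1000 to 2000 nt, so nothing about members is read from it. That member was FIZ1, a zinc finger protein, with the opposite gene TSS 842 nt away (named after its value was seen). No other gene TSS lay within 5000 nt of 91.5% of members (87.8% to 94.3%), 92.6% of daTSSs over 200 to 300 nt, 89.4% of all other daTSSs and 77.5% of all gene TSSs.

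In the later annotation used here, 39 members (12.3%, 8.90% to 16.4%) had an annotated transcript start on the daTSS strand within 200 nt of the daTSS, beside 5.84% of other daTSSs (4.97% to 6.80%) and 7.95% over 200 to 300 nt. With a window of 50 nt the shares were, in that order, 5.36% (3.15% to 8.45%), 3.26% and 4.87%. With 1000 nt they were 27.1% (22.3% to 32.4%), 23.2% and 29.7%. The 200-nt window reaches the gene TSS at every member and at no other daTSS, and the effect of this was not tested. Of the 39 transcripts, 30 were long noncoding RNAs and 6 belonged to protein-coding genes. Among members, the share was highest where the gene TSS lay over 50 nt upstream of the annotated start, at 21.5% (12.3% to 33.5%). With a gene TSS within 50 nt of the annotated start, it was 9.83% in members and 5.43% in other daTSSs. The 5 members nearest to an annotated start on the daTSS strand were SBK1 (a kinase gene, 1 nt), TM9SF1 (3 nt), NTF4 (neurotrophin-4, 4 nt), CACNG4 (a calcium channel subunit, 5 nt) and ASRGL1 (an asparaginase, 7 nt). Each lay beside an unnamed long noncoding RNA. The mRNA levels of these 5 genes were between 5.85 and 30.05 FPKM, and TM9SF1 and NTF4 had a uaTSS. For 4 of the 39 the annotated transcript carries the symbol of a divergent transcript of the same gene (BTF3, TNRC6B, VPS13B and OTULIN), and for 6 that of an antisense RNA. These named cases were picked by their symbols.

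For the letters over the start site itself, the counting intervals of members contained the shares of other daTSSs and of all gene TSSs. The pyrimidine-purine pair over positions -1 and +1 occurred in 64.0% of members (58.5% to 69.3%), in 67.3% of other daTSSs and in 66.1% of all gene TSSs. The stricter initiator-like form CANW (W is A or T, with the A on the start site) occurred in 22.1% (17.6% to 27.1%), beside 25.9% of other daTSSs and 18.8% of gene TSSs. Among the 9 antisense runs printed above, RPL27 and ACTG1 have CA at the capitals. A TATA-like sequence (TATA followed by A or T, beginning at -35 to -24) was found at 0 of 317 members, a count that allows a share of up to 0.946% (3 counts of the total, with an exact upper bound of 1.16%), and at 1.33% of other daTSSs. The share in other daTSSs grew with distance, from 0.513% over 200 to 300 nt to 2.90% over 1000 to 2000 nt.

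In the 50 nt upstream of the daTSS, the GC box GGGCGG (either strand), a binding sequence of SP1-family factors, was present at 22.1% of members (17.6% to 27.1%), 17.7% of daTSSs over 200 to 300 nt and 13.9% of all other daTSSs. Mean GC content of these 50 nt was 67.4% in members and 61.5% in other daTSSs, and its part in the GC box shares was not tested. At the gene TSSs of members the order of the GC box shares was the other way round, with 18.6% (14.5% to 23.3%) beside 28.6% for other daTSSs and 27.4% for all gene TSSs. The ETS-type sequence CCGGAAG (either strand) was in the 50 nt upstream of 2.21% of member gene TSSs (0.892% to 4.50%), beside 7.20% for other daTSSs and 6.78% for all. All 7 of these gene TSSs were within 50 nt of an annotated start, where the member share was 4.05% and that of other daTSSs 8.79%. The GC box difference was also present in that group (21.4% beside 30.9%). Upstream of member daTSSs, CCAAT was found in 2.21%, CCGGAAG in 1.89%, the YY1-type ATGGCGGC, the NRF1-type GCATGCGC and the AP-1-type TGANTCA in 0.631% each, and the CRE TGACGTCA in none (the same limits). Other daTSSs had 4.55% for CCAAT and at most 1.55% for each of the rest. A match of letters is not a bound site.

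Members sat inside GC-rich DNA on both sides. Mean GC content of the bases between gene TSS and daTSS was 66.2% ± 11.9 (SD over 315 members with at least 1 base between), and the 200 nt downstream of all gene TSSs had 66.9%. In the 500 nt upstream of the daTSS, read on its own strand and thus deeper into the gene, mean GC was 61.0% ± 11.4 (SD) in members, 58.3% ± 10.7 over 200 to 300 nt and 53.3% ± 10.9 in all other daTSSs. Within members it was 63.2%, 61.1%, 59.7% and 60.8% over the 4 steps of distance, so members and the next bin lay on a gradient. In the 500 nt downstream it was 64.0% ± 9.10 and 64.5% ± 9.49. GC was higher downstream than upstream at 62.1% of members (56.6% to 67.5%), 79.2% over 200 to 300 nt and 85.8% of all other daTSSs. Within members this share was 53.3%, 51.7%, 64.3% and 70.1% over the 4 steps of distance, so it moved with the distance that chose them. The ratio of observed to expected CpG in 250 nt on each side of the gene TSS had a median of 0.826 in members, 0.852 in other daTSSs and 0.832 over all gene TSSs.

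By function, the members spread over 14 gene lists matched by symbol, which together held 46 of them. Read against the 3.05% over all gene TSSs, the share with a daTSS within 200 nt was 6.41% of cytosolic ribosomal protein gene TSSs (5 of 78, interval 2.11% to 14.3%), 6.25% of clustered histone genes (3 of 48), 5.88% of the RNA polymerase II machinery (4 of 68), 5.45% of translation factors (3 of 55) and 5.43% of chromatin regulators (5 of 92). It was 5.00% of luminal markers (1 of 20), 3.18% of C2H2 zinc finger genes (14 of 440), 3.06% of symbols matched to the cell cycle and replication list (3 of 98) and 2.78% of mitochondrial ribosomal proteins (2 of 72). The remaining lists were lower, with 2.15% of oxidative phosphorylation genes (2 of 93), 1.82% of immediate early genes (1 of 55), 1.64% of splicing factors (1 of 61), 1.54% of chaperones (1 of 65) and 1.41% of proteasome and ubiquitin conjugation genes (1 of 71). The interval of each of the 14 lists contained 3.05%. Lists were matched by symbol, and the polymerase II list thereby took in GTF2IRD1 (15.1 FPKM), a transcription factor of the TFII-I family and no subunit of that machinery, and the ribosomal list RPS27L (41.7 FPKM), a paralog of RPS27. All 3 members matched to the cell cycle and replication list are CDC42 effectors, so its share says nothing about replication genes.

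The list members with the highest levels are named here. EIF3D, a subunit of the initiation factor that loads mRNA onto the ribosome, had 140 FPKM with a daTSS at 180 nt, and EIF2S2 42.0 FPKM at 144 nt. EPCAM, an epithelial adhesion molecule, had 146 FPKM with a daTSS at 170 nt in exon 1 and a uaTSS 53 nt upstream. The splicing factor SRSF3 had 87.7 FPKM, with its daTSS at 137 nt in intron 1. POLR2B, the second largest subunit of RNA polymerase II, had 54.3 FPKM at 166 nt, and the Mediator subunit MED25 20.9 FPKM at 175 nt. Of the chromatin regulators, SMARCC1 had 58.0 FPKM at 95 nt and CHD3 49.98 FPKM at 194 nt. The zinc finger genes ZNF768 and ZNF395 had 84.0 and 29.3 FPKM, with daTSSs at 155 and 179 nt. MRPL11 had 59.6 FPKM at 192 nt. NDUFA4 and COX20, matched by symbol to the oxidative phosphorylation list, had 42.6 and 17.1 FPKM at 116 and 33 nt. ZFP36L1, which promotes mRNA decay, had 42.4 FPKM at 146 nt, and PSMG1, a proteasome assembly chaperone, 30.05 FPKM at 64 nt. The histone genes H4C8 and H2BC3 had 6.62 and 0.147 FPKM, with daTSSs at 190 and 139 nt. The 3 members matched to the cell cycle list, led by CDC42EP4 (47.2 FPKM) and CDC42BPG (18.8 FPKM), are effectors of the CDC42 GTPase rather than replication genes.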

How the data were processed

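Start sites (Start-seq) and mRNA levels (RNA-seq) were analysed. The authors filtered reads by quality, trimmed them with cutadapt 1.2.1, aligned them to hg19 with Bowtie 0.12.8 and called each antisense TSS at the single position with most 5′ ends in its window (uaTSS up to 1000 nt upstream, daTSS up to 2000 nt downstream), so weaker antisense sites of a gene do not appear. daTSSs near (up to 1000 nt) a known start site on their own strand, or behind sense reads that pointed to an uncalled gene TSS were removed. The deposited score is 0 in every call and holds no read count. The deposited FPKM came from TopHat2 2.0.4, Picard 1.118 and Cufflinks 2.2.1 on merged replicates, with 0 columns of per-sample values and 28 symbols turned into dates.

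Calls were joined by identifier. Genes and positions came from the GENCODE annotation lifted to GRCh37 (nearest transcript start within 1000 nt on the gene strand, none for 25 gene TSSs). FPKM was joined by current or older symbol where the locus held the gene TSS within 5000 nt, and 254 gene TSSs, among them 4 members, had no value. Log2 values used a pseudocount of 0.1. Python 3.11.15, numpy 2.4.6, pandas 2.3.3, scipy 1.17.1 and matplotlib 3.10.9 were used, and distance, placement and interval functions were tested on simulated data. Named genes were the 10 highest and 5 lowest FPKM, the 6 shortest distances, 3 sites on each side of the threshold, the 2 highest FPKM per list and the 5 nearest annotated antisense starts. A planned naming of members with a TATA-like sequence found none. Alternatives were other distance thresholds, windows, transcripts, patterns, pseudocounts and subsets of gene TSSs. The members and lists were chosen with earlier results of these data known. A further list of cell type markers is not reported here.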

Additional observations from a re-analysis of the deposited data

How the results depend on the processing

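The 11 results were computed in 69 alternative ways, of which 52 left the value inside its 95% interval and 17 did not. A threshold of 100 nt gave a uaTSS at 58.3% of members, 64.2% GC between the sites, and a divergent gene TSS at 0%. Divergent gene TSSs were at 0.526% and 0.188% with thresholds of 150 and 250 nt, and at 0% and 1.26% with windows of 500 and 2000 nt. Any transcript of the gene put 53.8% of members in an exon and any transcript on the gene strand 54.3%. Annotated antisense starts were found at 8.20%, 20.5% and 27.1% of members with windows of 100, 500 and 1000 nt, and CA alone at 37.9%. Among settings chosen after seeing the data, keeping gene TSSs within 50 nt of an annotated start gave a uaTSS at 74.0% and an exon at 61.3%, thresholds of 100 and 250 nt put 29.2% and 14.5% of daTSSs upstream of the annotated start, 13.3% were outside every transcript of the gene, and offsets of 25 and 100 nt put 60.1% and 34.8% of gene TSSs beyond the offset. The difference in median log2 FPKM stayed below 0 in all 9 alternatives, and the share of daTSSs within 200 nt stayed inside its interval in all 4. No paired analysis was possible because the calls come from 1 library and FPKM from merged replicates, and for the same reason no replicate could be left out. Without read counts the calls cannot be weighed by depth: a gene TSS without a daTSS within 200 nt may have had too few reads, or a stronger antisense site elsewhere in its window.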
